A study of Mus musculus with 18 samples.

Results

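Transcripts of 9 enzymes of fatty acid oxidation were followed in epididymal white adipose tissue (eWAT, the fat pad beside the testis) of male mice. They were Cpt1a, Cpt1b, Cpt2, Acadm, Acadl, Acadvl, Hadha and Hadhb, whose proteins work in mitochondria, and Ehhadh, whose protein works in peroxisomes. The 9 genes were chosen by name, as the rows of the deposited count table whose Ensembl identifiers carry these symbols in GENCODE release M21, and all 9 were found among 16452 genes. The animals were wild-type C57BL/6 males of a generation labelled Fm, which the labels trace to zygotes microinjected with a negative control, let-7d or let-7e, with IVF (in vitro fertilisation) in the treatment name. The let-7 family are microRNAs, short RNAs that repress messenger RNAs carrying matching sites. All 3 groups shared the genotype, strain, sex and diet: chow from weaning to week 6, then the diet labelled LFD to week 15, while the age label says 24 weeks. The libraries analysed were 5 control, 6 let-7d and 6 let-7e, with control replicate 5 not analysed here. The labels number the libraries within a group but name no litter or injection session, so the p-values measure the spread between these samples.

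Fatty acids reach the mitochondrial matrix through the carnitine shuttle. Cpt1 enzymes on the outer membrane join a long-chain acyl group to carnitine, a carrier moves it across the inner membrane, and Cpt2 hands it back to coenzyme A. Each turn of beta-oxidation then starts with an acyl-CoA dehydrogenase that suits the chain length, and continues with hydration, a further oxidation and thiolysis, which the trifunctional protein made of Hadha and Hadhb carries out for long chains. Peroxisomes run a parallel pathway for very long, branched and dicarboxylic fatty acids, in which Ehhadh hydrates and oxidises the acyl-CoA. White fat cells store and release fatty acids and oxidise them less than muscle, liver or brown fat do.

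Total counts ran from 12717365 to 28972306 per library. Levels are given as CPM (read counts scaled to a common library total) after TMM, a factor per library that evens out composition. The sample identifiers form an early series, with 2 let-7d and 2 let-7e libraries, and a late series of 13 that holds every control. The fitted differences between groups account for this series. All 8 adipocyte markers, such as Adipoq and Plin1, were measured, with a mean log2 CPM of 10.88 to 12.17 per library. Among 6 brown fat markers Ucp1 was not measured. The mean log2 CPM of the 5 measured ones peaked at 3.25, in control 1. Let-7d 6 followed with 2.23, and control 6 had the lowest mean, 0.30. Of 8 skeletal muscle markers Ckm, Myh4, Tnni2 and Tnnc2 were not measured. The 4 measured ones averaged 0.07 (control 1) to 1.95 (control 3) in log2 CPM. The part of the brown fat markers in the enzyme values was not tested. Transcripts of other organs stood out in 4 libraries: smooth muscle and vas deferens or epididymis in control 3, spermatids in control 6, and epithelium in let-7d 1 and let-7d 5. In whole tissue, fewer cells of a type and less RNA per cell cannot be told apart.

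None of the 9 enzymes differed between groups at an adjusted p under 0.05 in edgeR's quasi-likelihood test with Benjamini-Hochberg adjustment over all 16452 genes, and the same test called 0% of all genes in let-7d against control, in let-7e against control and in let-7e against let-7d. DESeq2's Wald test and limma-voom called none of the 9 either, while DESeq2 called 10, 15 and 14 genes of the whole table in the same order. Against control, 2 of the 9, Cpt1b and Ehhadh, were lower with let-7d at an unadjusted p under 0.05, where 7.08% of all genes were. With let-7e, 1 of the 9, Cpt1b, was lower at that level, where 7.99% of all genes were. Between let-7e and let-7d it was 0 of the 9, where 6.67% of all genes were, counting either direction. The libraries of the groups overlapped for every enzyme in every comparison.

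These counts differed with the libraries used. The 4 libraries that hold transcripts of other organs were left out in a fit chosen after seeing the data, in which controls 1, 2 and 4 remain. Controls 1 and 4 had the highest mean log2 CPM of the 6 enzymes from Cpt2 to Hadhb, at 8.43 and 8.11. The libraries left out were at 7.46 and 7.32 (controls 3 and 6), 7.07 (let-7d 1) and 7.66 (let-7d 5). These 6 enzymes went together across libraries, so their p-values are not separate results. In this fit, 5 of the 9 were lower with let-7d at an unadjusted p under 0.05 (Cpt2, Acadvl, Hadha, Hadhb and Ehhadh), where 4.75% of all genes were. With let-7e it was 4 of the 9 (Cpt2, Hadha, Hadhb and Ehhadh), where 4% of all genes were, and none passed edgeR's adjusted test. Within the late series 1 of the 9, Ehhadh, was lower at that level in each comparison with control. With let-7e, 1119 of the 15927 genes tested in that series were at that level in either direction. The matching share for let-7d is not given here. For Cpt1b with let-7d the unadjusted p was 0.0620 in the late series in edgeR and 0.0586 in limma-voom.

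**Figure D1:**
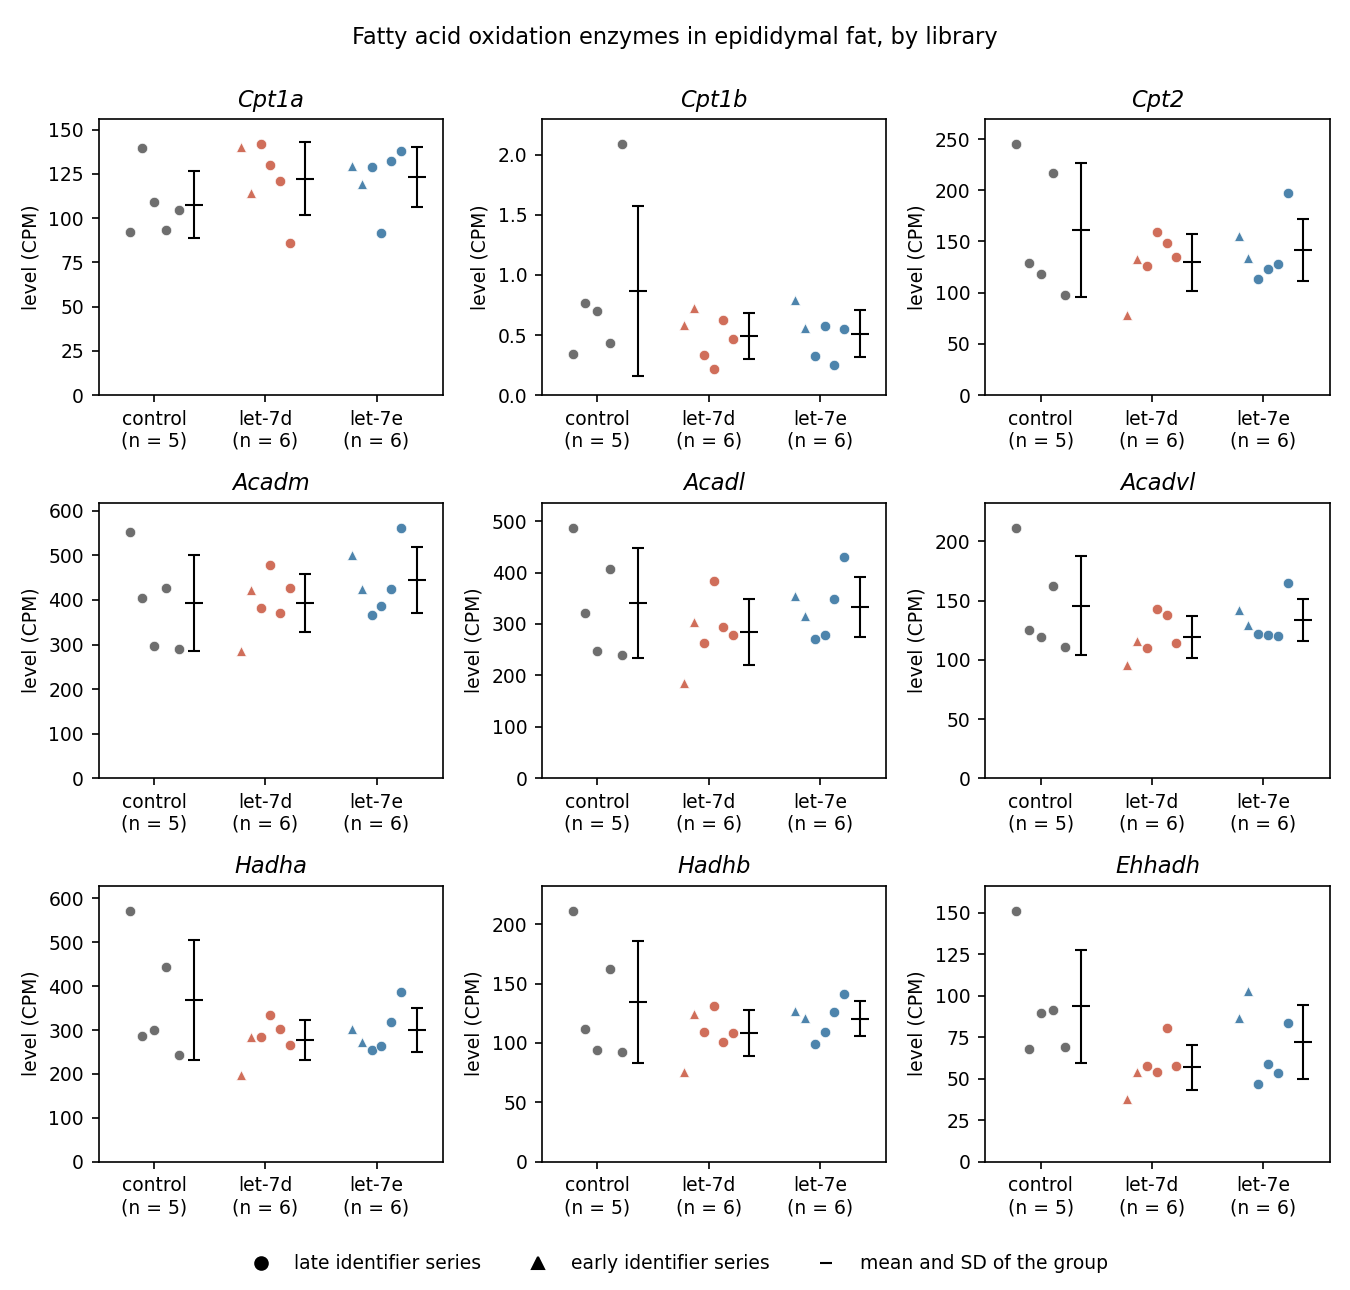
Level of each enzyme in CPM (y axis, from 0, a scale per panel) by group (x axis: 5 control, 6 let-7d and 6 let-7e libraries). Points are libraries, triangles are the early identifier series, and the bar is the group's mean with its SD. Control 1 is the highest library for 6 of the 9 enzymes, and Cpt1b stays under 1 CPM except in control 6, at 2.09 CPM.

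In signs, 6 of the 8 mitochondrial enzymes had a fitted log2 fold change below 0 with let-7d, with a median of −0.26. Over all genes 57.5% were below 0 and the median was −0.04. With let-7e it was 5 of 8 with a median of −0.11, and over all genes 58.1% with a median of −0.04. In let-7e against let-7d all 8 were above 0 with a median of 0.15, and over all genes 46.9% were above 0 with a median of −0.01. Control 1 weighed on these values: without it the median of the 8 was −0.06 with let-7d and 0.09 with let-7e. In the latter 6 of 8 were above 0, where 46.4% of all genes were. In the late series 7 of 8 were above 0 in let-7e against let-7d, with a median of 0.05, where 45.3% of all genes were. Without let-7d 1 all 8 were above 0, with a median of 0.06, where 47.3% of all genes were. Of the adipocyte markers, 6 of 8 were below 0 with let-7d, with a median of −0.20. At an unadjusted p under 0.05 in edgeR, 2 of the 8 were lower with let-7d and 1, Lep, was higher. Of all 16452 genes, 1165 were lower and 511 higher at that level. In let-7e against let-7d 7 of 8 were above 0, with a median of 0.32. There 3 were higher at that level, where 551 of all 16452 genes were. The part of the adipocyte markers in the enzyme values was not tested. The 2 comparisons with control share the same 5 control libraries, and the third shares both injected groups with them.

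**Figure D2:**
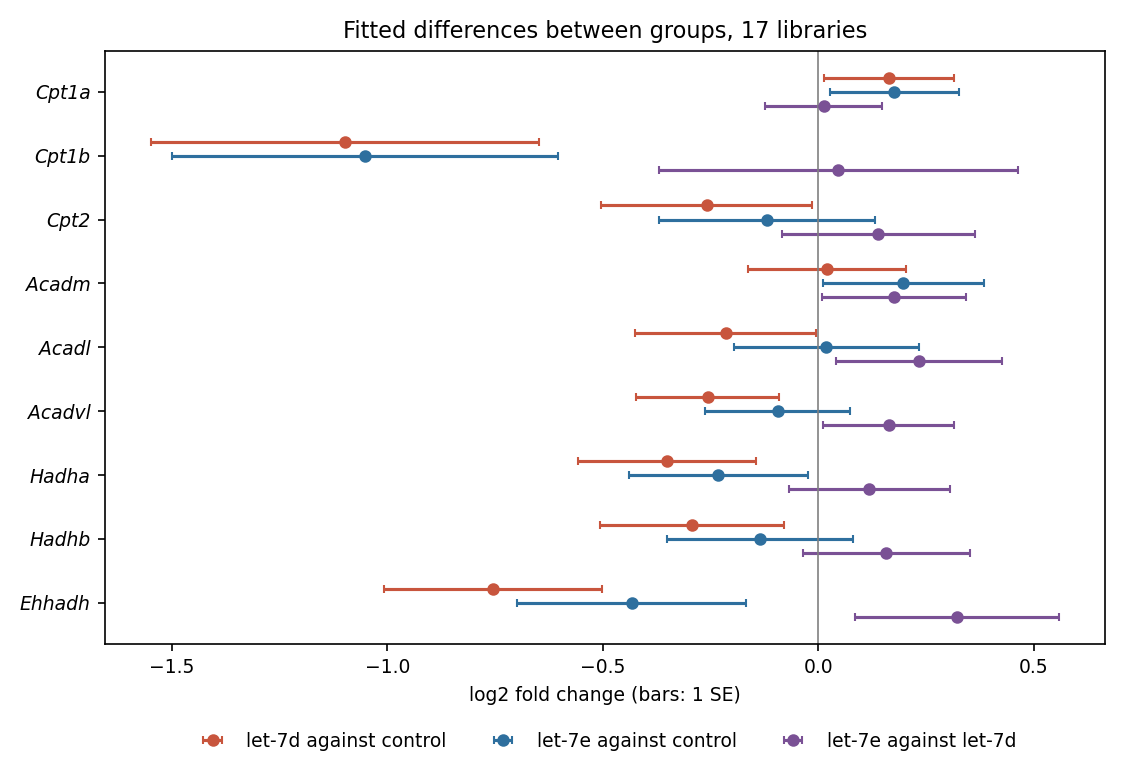
Fitted log2 fold change of each enzyme (x axis; bars are 1 SE) in 3 comparisons over 17 libraries. Cpt1b lies farthest from 0 and has the widest bars, with −1.10 for let-7d and −1.05 for let-7e, and Ehhadh follows with −0.76 and −0.43.

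The carnitine shuttle came first. Cpt1a (ENSMUSG00000024900.5, chr19:3322334-3385733 on the plus strand of GRCm38) encodes the liver-type enzyme that commits long-chain fatty acids to the mitochondrion. Its level in controls 1, 2, 3, 4 and 6 was 92.4, 139.6, 109, 93.3 and 104 CPM. The let-7d libraries ran from 86.2 to 142 CPM with a median of 125, and the let-7e libraries from 91.6 to 138 CPM with a median of 129. In each injected group 5 of 6 libraries lay above the mean of the controls, and 1 lay below the lowest control. Its log2 fold change was 0.16 (SE 0.15) for let-7d and 0.18 (SE 0.15) for let-7e, with adjusted p = 0.712 and 0.704 in edgeR. Cpt1a also varied least, with a coefficient of variation of 16.1% over the 17 libraries.

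Cpt1b (ENSMUSG00000078937.8, chr15:89416405-89425863, minus strand), the muscle-type form of the same enzyme, was close to the floor of detection. It had 3 to 51 counts per library and a mean of 13.4, so counting alone gives a coefficient of variation of 34.1%, beside 69.0% observed. The controls held 0.344, 0.770, 0.700, 0.435 and 2.09 CPM in replicates 1, 2, 3, 4 and 6. The let-7d libraries lay between 0.216 and 0.722 CPM with a median of 0.525, and the let-7e libraries between 0.254 and 0.794 CPM with a median of 0.557. Apart from control 6, the controls lay within the range of the injected groups.

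The fitted log2 fold change of Cpt1b was −1.10 (SE 0.45) for let-7d and −1.05 (SE 0.45) for let-7e, with unadjusted p = 0.0273 and 0.0322 and adjusted p = 0.473 and 0.440 in edgeR. Without control 6 these values were −0.47 and −0.43, with unadjusted p = 0.211 and 0.249. Control 6 was also the library with spermatid transcripts: all 6 spermatid markers were measured, and their mean log2 CPM was 7.58 there against −3.15 to 3.23 in the other libraries. Prm2, which packs sperm DNA, stood at 331 CPM and Ldhc, a testis lactate dehydrogenase, at 282 CPM in control 6. Their part in the Cpt1b value was not tested. Cpt1b also shares 2744 exon bases, 81.4% of its exons, on the same strand with the annotated gene Gm44502, which the count table does not list. How reads of such overlaps were assigned is not given in the sources used here.

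Cpt2 (ENSMUSG00000028607.16, chr4:107903981-107923610, minus strand), the inner-membrane partner, held 245, 129, 119, 217 and 97.5 CPM in controls 1, 2, 3, 4 and 6. The let-7d libraries ran from 78.6 to 159 CPM with a median of 134, and the let-7e libraries from 114 to 197 CPM with a median of 131. Controls 1 and 4 lay above every let-7d and let-7e library, and the other 3 controls lay among them. Its log2 fold change was −0.26 (SE 0.25) for let-7d and −0.12 (SE 0.25) for let-7e, with adjusted p = 0.724 and 0.904 in edgeR.

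The acyl-CoA dehydrogenases take the first step of each turn. Acadm (ENSMUSG00000062908.12, chr3:153922357-153944632, minus strand), for medium chains, held 552, 404, 296, 427.5 and 289 CPM in controls 1, 2, 3, 4 and 6. It ran from 284.5 to 478 CPM with a median of 402 in let-7d and from 366 to 562 CPM with a median of 424 in let-7e. Controls 3 and 6 and let-7d 1 were the low libraries, and control 1 and let-7e 6 the high ones. The log2 fold change was 0.02 (SE 0.18) for let-7d and 0.20 (SE 0.19) for let-7e, with adjusted p = 0.976 and 0.742 in edgeR. Without the 4 libraries that hold transcripts of other organs, both values lay below 0, at −0.11 and −0.05.

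Acadl (ENSMUSG00000026003.5, chr1:66830839-66863277, minus strand), for long chains, held 487, 322, 248, 407 and 239.7 CPM in the same 5 controls. It ran from 184 to 384 CPM with a median of 286 in let-7d and from 271 to 430.4 CPM with a median of 332 in let-7e. Let-7d 1 was the lowest of the 17 libraries and control 1 the highest. Its log2 fold change was −0.21 (SE 0.21) for let-7d and 0.02 (SE 0.21) for let-7e, with adjusted p = 0.733 and 0.986 in edgeR.

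Acadvl (ENSMUSG00000018574.14, chr11:70010183-70015411, minus strand), for very long chains at the inner membrane, held 212, 125, 119.5, 162 and 111 CPM in controls 1, 2, 3, 4 and 6. It ran from 95.5 to 143 CPM with a median of 115 in let-7d and from 120.3 to 165 CPM with a median of 125.5 in let-7e. All 6 let-7e libraries lay above the let-7d mean, while 2 let-7d libraries lay among them. The log2 fold change was −0.26 (SE 0.17) for let-7d, −0.09 (SE 0.17) for let-7e, and 0.16 (SE 0.15) for let-7e against let-7d, with adjusted p = 0.599, 0.885 and 0.902 in edgeR. Acadvl shares 1151 exon bases, 42.9% of its exons, with Dvl2 on the opposite strand. Whether the counting used strand is not given in the sources used here, and Dvl2 had 6171 counts in all against 45438 for Acadvl.

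The trifunctional protein's subunits are encoded side by side. Hadha (ENSMUSG00000025745.12, chr5:30118304-30155162, minus strand) encodes the alpha subunit, which hydrates and oxidises long-chain intermediates, and Hadhb (ENSMUSG00000059447.13, chr5:30155248-30184593, plus strand) the beta subunit, which splits off acetyl-CoA. The annotated genes point away from each other with 86 bases between them. The RefSeq promoter windows of the pair, from 250 bases before to 50 after the start of each gene in build GRCm38.p6, share 228 bases (chr5:30155003-30155230) read on opposite strands. Both are shown because the genes share this stretch. Its part in their levels was not tested. Capitals mark the GC box GGGCGG, on either strand.
Hadha (chr5:30154931-30155230, minus strand): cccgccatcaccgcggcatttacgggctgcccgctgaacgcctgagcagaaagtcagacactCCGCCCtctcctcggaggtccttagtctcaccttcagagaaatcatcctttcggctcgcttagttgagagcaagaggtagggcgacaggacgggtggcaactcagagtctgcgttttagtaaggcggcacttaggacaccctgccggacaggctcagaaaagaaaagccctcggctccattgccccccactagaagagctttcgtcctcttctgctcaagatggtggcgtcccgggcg
Hadhb (chr5:30155003-30155302, plus strand): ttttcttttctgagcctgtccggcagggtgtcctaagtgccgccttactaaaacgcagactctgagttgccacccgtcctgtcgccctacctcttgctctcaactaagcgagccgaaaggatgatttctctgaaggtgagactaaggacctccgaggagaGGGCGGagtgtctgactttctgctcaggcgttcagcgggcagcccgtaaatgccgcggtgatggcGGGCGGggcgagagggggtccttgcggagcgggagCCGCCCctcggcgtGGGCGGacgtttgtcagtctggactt

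Hadha held 572, 285, 299.7, 443 and 243 CPM in controls 1, 2, 3, 4 and 6. The let-7d libraries ran from 197 to 334 CPM with a median of 283, and the let-7e libraries from 254 to 388 CPM with a median of 288. On the log2 scale all 6 let-7d libraries and 5 of the 6 let-7e libraries lay below the mean of the controls, yet the lowest control lay below every injected library except let-7d 1. The log2 fold change was −0.35 (SE 0.21) for let-7d and −0.23 (SE 0.21) for let-7e, with adjusted p = 0.566 and 0.727 in edgeR.

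Hadhb held 211.5, 112, 93.7, 162 and 92.2 CPM in the same controls. It ran from 75.2 to 131 CPM with a median of 109 in let-7d and from 98.9 to 142 CPM with a median of 123 in let-7e. The log2 fold change was −0.29 (SE 0.21) for let-7d and −0.14 (SE 0.22) for let-7e, with adjusted p = 0.643 and 0.863 in edgeR. The difference of the pair, Hadha minus Hadhb in log2 CPM, was 1.46 ± 0.13 (SD, n = 5) in controls, 1.36 ± 0.13 (SD, n = 6) in let-7d and 1.31 ± 0.10 (SD, n = 6) in let-7e. Across the 17 libraries it stayed between 1.18 and 1.68 while Hadha itself spanned 2.90-fold and Hadhb 2.81-fold.

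Ehhadh (ENSMUSG00000022853.7, chr16:21761287-21787807, minus strand) is the peroxisomal bifunctional enzyme and a known target of the fatty acid receptor PPAR alpha in mouse liver. It held 151, 67.6, 89.4, 91.5 and 68.8 CPM in controls 1, 2, 3, 4 and 6. The let-7d libraries ran from 38.0 to 80.3 CPM with a median of 55.8, and the let-7e libraries from 46.9 to 103 CPM with a median of 71.5. Of the 6 let-7d libraries, 5 lay below every control, and let-7d 5, one of the libraries with epithelial transcripts, was the exception. The log2 fold change was −0.76 (SE 0.25) for let-7d, with unadjusted p = 0.00901 and adjusted p = 0.456 in edgeR, and all 6 libraries lay below the mean of the controls.

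For let-7e the log2 fold change of Ehhadh was −0.43 (SE 0.27), with adjusted p = 0.578 in edgeR and 5 of 6 libraries below the control mean. Without control 1 it was −0.19, and without the 4 libraries with transcripts of other organs it was −0.66. The 2 early let-7e libraries held 86.9 and 102.7 CPM and the 4 late ones 46.9 to 83.8 CPM, whereas the 2 early let-7d libraries held 38.0 and 54.0 CPM and the late ones 54.0 to 80.3 CPM. Early was therefore the higher series in let-7e and the lower in let-7d, which an additive series term cannot follow, and the difference was not tested.

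Within the late series alone, where no series term is needed, the mean log2 CPM of Ehhadh minus that of the 5 controls was −0.54 with let-7d (4 libraries) and −0.59 with let-7e (4 libraries). Two-sided exact permutation over 126 arrangements gave p = 0.0476 and 0.0635, and adjusted p = 0.857 for both over the 27 tests of 9 enzymes in 3 comparisons. No other enzyme had an exact p under 0.159 in these tests. Let-7e against let-7d in the late series was −0.05 for Ehhadh, against 0.32 (SE 0.24, adjusted p = 0.863 in edgeR) over both series.

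The promoters of Ehhadh, Acadm and Cpt1a are shown as well. Ehhadh and Cpt1a were taken because they followed the other enzymes less closely. Acadm was taken because it holds, with Cpt1a and Acadvl, the nuclear receptor hexamer AGGTCA. The part of any motif in the levels was not tested. Capitals mark AGGTCA, the GC box GGGCGG and the CCAAT box, each on either strand.
Ehhadh (chr16:21787785-21788084, minus strand): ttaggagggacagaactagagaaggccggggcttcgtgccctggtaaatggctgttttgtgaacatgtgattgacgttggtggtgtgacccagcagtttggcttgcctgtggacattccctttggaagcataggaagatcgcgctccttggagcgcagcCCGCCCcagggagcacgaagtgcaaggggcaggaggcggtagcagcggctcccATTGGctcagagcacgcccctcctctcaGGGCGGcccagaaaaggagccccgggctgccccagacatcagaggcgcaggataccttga
Acadm (chr3:153944594-153944893, minus strand): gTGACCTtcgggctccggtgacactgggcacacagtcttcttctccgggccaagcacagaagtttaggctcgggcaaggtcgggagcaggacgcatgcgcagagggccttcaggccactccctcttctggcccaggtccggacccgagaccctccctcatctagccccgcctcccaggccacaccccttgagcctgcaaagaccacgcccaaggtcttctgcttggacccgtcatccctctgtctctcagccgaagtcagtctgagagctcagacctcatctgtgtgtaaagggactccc
Cpt1a (chr19:3323051-3323350, plus strand): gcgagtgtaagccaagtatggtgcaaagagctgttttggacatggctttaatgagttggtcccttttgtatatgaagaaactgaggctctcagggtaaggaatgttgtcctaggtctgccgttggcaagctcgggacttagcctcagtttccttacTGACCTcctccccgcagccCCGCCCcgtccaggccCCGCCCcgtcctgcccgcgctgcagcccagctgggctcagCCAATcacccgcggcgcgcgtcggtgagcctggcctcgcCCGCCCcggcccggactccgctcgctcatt

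RefSeq gave a promoter window for 8 of the 9 genes, all but Cpt1b. AGGTCA, searched on both strands, was in 3 of the 8, and in 16.3% of 32817 promoters of the same length. GGGCGG was in 6 of the 8, namely Acadl, Cpt1a, Cpt2, Ehhadh, Hadha and Hadhb, and in 35.6% of promoters. The only match in the Hadha window lies in the stretch shared with Hadhb and is also marked there, read on the other strand. The matches of Hadha and Hadhb are therefore not separate. CCAAT was in 2 of the 8, Cpt1a and Ehhadh, and in 37.4% of promoters. The DR1 element, AGGTCA repeated with a single base between, the form that PPAR receptors are known to bind, was in 0 of the 8 and in 0.0396% of promoters. The E-box CACGTG was in 0 of the 8 and in 7.15% of promoters.

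Several enzymes varied together from library to library. How the variation divides between libraries and groups was not tested. Cpt2, Acadm, Acadl, Acadvl, Hadha and Hadhb were high together in control 1 and let-7e 6, and all but Acadm in control 4, and low together in let-7d 1 and control 6. These 6 were set apart after their values were seen. Their mean log2 CPM was 7.80 ± 0.46 (SD, n = 5) in controls, 7.57 ± 0.27 (SD, n = 6) in let-7d and 7.74 ± 0.22 (SD, n = 6) in let-7e, with the highest value, 8.43, in control 1 and the lowest, 7.07, in let-7d 1. Cpt1a did not share this order: controls 1 and 4 were among its lowest 4 libraries.

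**Figure D3:**
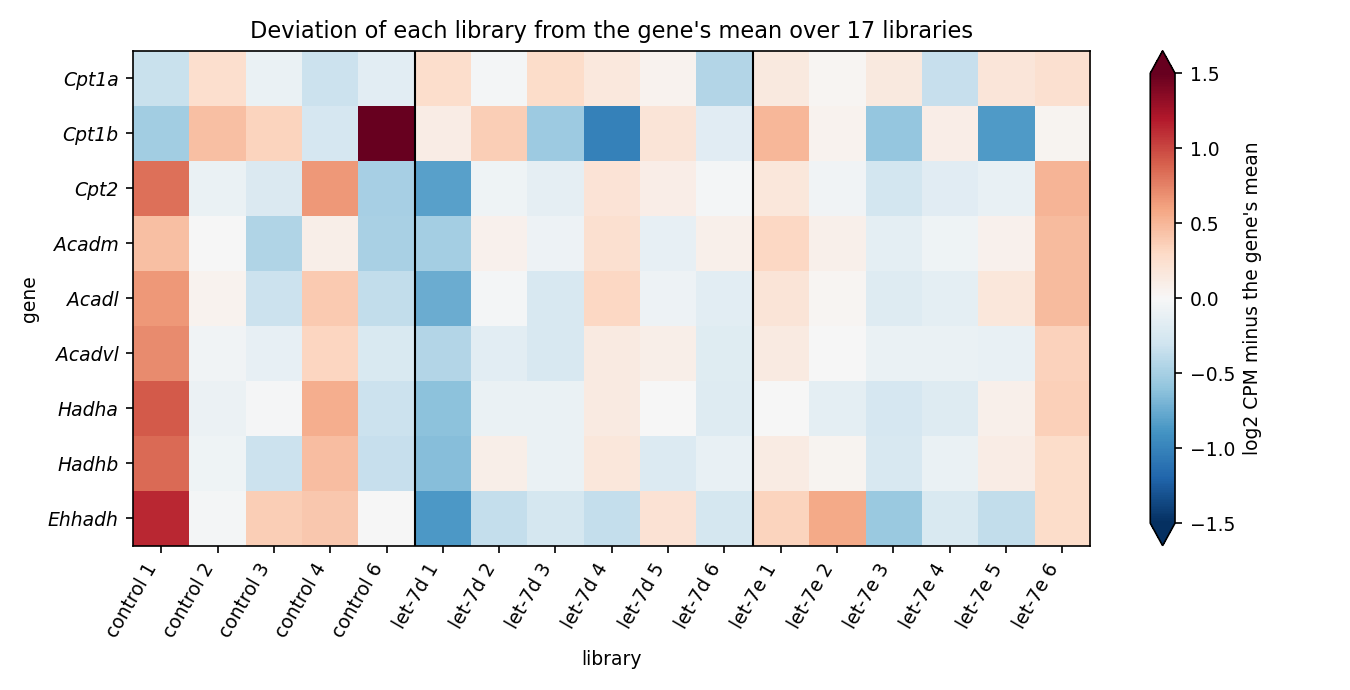
Log2 CPM of each enzyme (rows) in each of 17 libraries (columns) minus the enzyme's mean over all libraries, as colour from blue (lower) to red (higher), with the scale ending at 1.5 in each direction. The columns of control 1 and let-7d 1 carry the same colour in most rows, red and blue, and the Cpt1a and Cpt1b rows follow another pattern.

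Over the 17 libraries, 20 of the 36 pairs of enzymes had a permutation p for Pearson's r under 0.05 after Benjamini-Hochberg adjustment over the 36 pairs (100000 resamples, two-sided). All 20 correlations were positive. They were the 15 pairs among Cpt2, Acadm, Acadl, Acadvl, Hadha and Hadhb, and 5 pairs of Ehhadh with one of these. The share of all gene pairs that would pass the same test was not measured. Whether these counts are particular to the enzymes was therefore not tested. For the 15 pairs r ran from 0.716 to 0.948 with a median of 0.911, and Spearman's rho from 0.743 to 0.956. In the 13 late libraries r was 0.714 to 0.948, in the 6 let-7d libraries 0.690 to 0.973 and in the 6 let-7e libraries 0.771 to 0.979. Leaving out for each pair the 2 libraries farthest from the median of the first enzyme gave 0.599 to 0.921, and all 15 kept an adjusted permutation p under 0.05, the highest being 0.0457.

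The closest pair was Cpt2 with Hadha, with r = 0.948 and rho = 0.833 (adjusted permutation p = 6.6e-05 and 0.000425). The subunits Hadha and Hadhb had r = 0.932 and rho = 0.841 (adjusted permutation p = 4.5e-05 and 0.000252), and r = 0.833 without controls 1 and 4. Acadm with Hadha was the loosest of the 15, with r = 0.716 (adjusted permutation p = 0.00252) and r = 0.599 without let-7d 1 and control 6.

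The relation of Ehhadh to the mitochondrial enzymes rested more on single libraries. Its r was highest with Acadvl, at 0.788 with rho = 0.571 (adjusted permutation p = 0.000528 and 0.0430), and 0.634 without control 1 and let-7e 6 (adjusted permutation p = 0.0236). With Cpt2 it was 0.721 and with Hadhb 0.669, and without control 1 and let-7d 1 these were 0.417 and 0.226 (adjusted permutation p = 0.193 and 0.515). Cpt1a and Cpt1b had no pair with an adjusted permutation p under 0.05 over the 17 libraries. Cpt1a with Ehhadh had r = −0.376 (adjusted permutation p = 0.199), and −0.637 without let-7d 6 and let-7e 4 (adjusted permutation p = 0.0236).

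**Figure D4:**
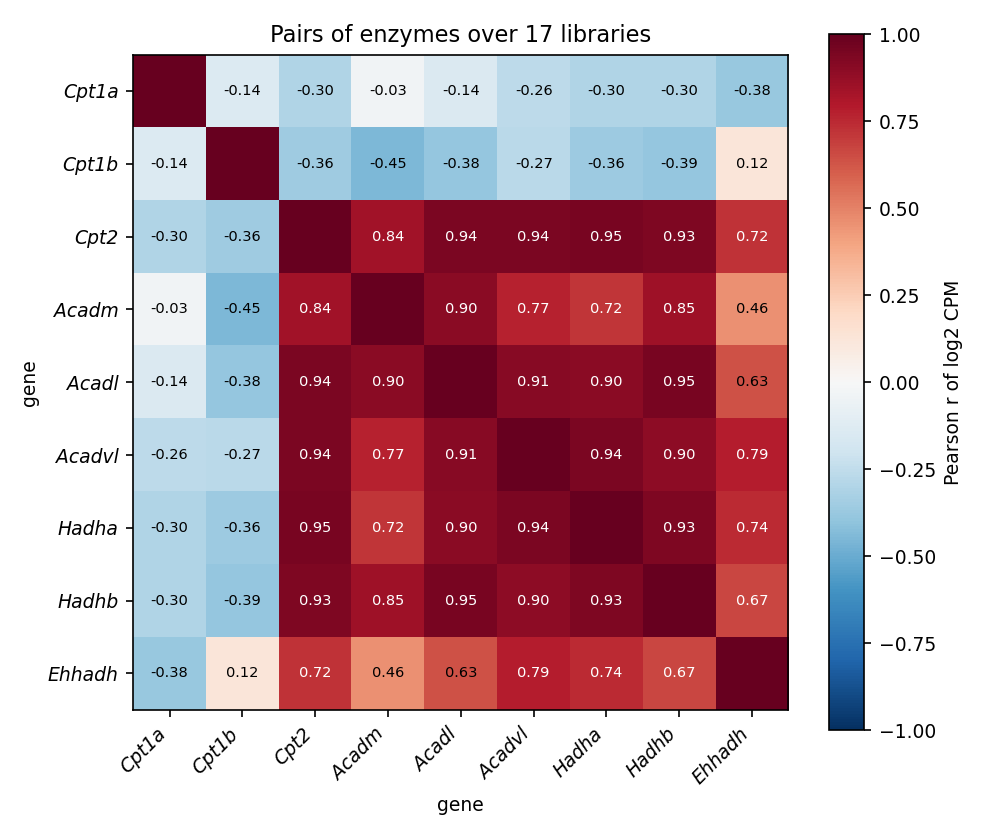
Pearson's r of log2 CPM for each pair of the 9 enzymes (rows and columns) over 17 libraries, from blue (−1) to red (1). The block from Cpt2 to Hadhb is red throughout, with a lowest value of 0.716, Ehhadh is paler against it, and the Cpt1a and Cpt1b rows stay near or below 0.

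The mean level of the adipocyte markers correlated with 5 of the 9 enzymes over 17 libraries at an adjusted permutation p under 0.05 for Pearson's r (Cpt2, Acadm, Acadl, Acadvl and Hadhb), and with 0 of the 9 for Spearman's rho. The mean log2 CPM of the 8 markers, lowest in let-7d 1 at 10.88 and next lowest in control 3 at 11.09, had r = 0.734 and rho = 0.610 with Acadl over 17 libraries (permutation p = 0.00549 and 0.0502 adjusted over the 9 enzymes). In the late series alone r was 0.614 (adjusted permutation p = 0.110), and without let-7d 1 and control 1 it was 0.670 (adjusted permutation p = 0.0325). For Ehhadh r was 0.244 and for Cpt1a −0.095 (adjusted permutation p = 0.439 and 0.728). Within the late series none of the 9 passed an adjusted p of 0.05.

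Control 1 and control 4 were the libraries with the highest levels of Cpt2 and Hadha. Acaca, the acetyl-CoA carboxylase whose product malonyl-CoA blocks Cpt1, was at 1807 CPM in control 1 and 1103 CPM in control 4, against 216.5 to 582 CPM in the other 15 libraries. Acacb, the form tied to the mitochondrial surface, was at 912.5 CPM in control 1, while control 4, at 468 CPM, lay close to let-7e 6, at 439 CPM. Their part in the enzyme levels was not tested.

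For each enzyme, the 3 genes with the highest Pearson r in log2 CPM over the 17 libraries were taken from the 14554 genes that averaged 1 CPM or more. For Cpt2 they were Pcca, Mccc1 and Coq3 (r = 0.963, 0.962 and 0.955). For Hadhb they were Pcca, Ghitm and Decr1 (r = 0.974, 0.970 and 0.960), and for Hadha Dlat, Ctsd and mt-Cytb (r = 0.965, 0.956 and 0.956). The dehydrogenases gave Chpt1, Slc36a2 and Hadh for Acadm (r = 0.941, 0.934 and 0.930), Cat, Apmap and Hadh for Acadl (r = 0.966, 0.964 and 0.956), and, among others, Sdha and Atp5a1 for Acadvl (r = 0.959 and 0.956).

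The other 3 enzymes had looser neighbours. For Ehhadh they were Nabp1, Afg3l2 and Gm48832 (r = 0.826, 0.824 and 0.822). For Cpt1a they were Ret, 3425401B19Rik and Olfml2a (r = 0.792, 0.788 and 0.781), and for Cpt1b Cdkn2aip, Zfp451 and Zfp39 (r = 0.834, 0.832 and 0.830). These values describe libraries that share depth and tissue composition, and the highest r of many genes is high by selection.

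Levels of different genes were compared per kilobase of the principal transcript. Acadm was highest at 201 ± 39.6 CPM per kilobase (SD, n = 17), followed by Acadl at 166 ± 40.0. Hadha stood at 77.8 ± 21.6, Acadvl at 60.9 ± 12.6, Cpt2 at 60.4 ± 17.7 and Hadhb at 58.7 ± 15.2 CPM per kilobase. Cpt1a stood at 27.4 ± 4.40, Ehhadh at 24.5 ± 9.07 and Cpt1b at 0.210 ± 0.145 CPM per kilobase. Acadm and Acadl lay within 1 SD of each other, as did Acadvl, Cpt2 and Hadhb, and likewise Cpt1a and Ehhadh. Hadha lay above Acadvl and Hadhb by more than the SD of either, but by less than its own SD. Per kilobase of all annotated exons Acadl, at 159 ± 38.2, stood above Acadm, at 105 ± 20.7, and Hadhb, at 18.2 ± 4.73, stood below Ehhadh, at 24.5 ± 9.07, so the order depends on the length used.

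Peroxisomal and mitochondrial levels were compared within each library, as a description without a test. Ehhadh minus the mean of the 8 mitochondrial enzymes was −0.16 ± 0.32 in log2 CPM in controls (SD, n = 5), −0.64 ± 0.25 in let-7d (SD, n = 6) and −0.46 ± 0.34 in let-7e (SD, n = 6). It was highest in control 1, at 0.25, and lowest in let-7d 1, at −0.87. The mean of 8 includes Cpt1b, which is close to the floor of detection. Against the 6 enzymes from Cpt2 to Hadhb the difference was −1.31 ± 0.27 in controls, −1.77 ± 0.27 in let-7d and −1.62 ± 0.37 in let-7e, from −0.97 in control 3 to −2.14 in let-7d 4. The controls overlapped with both injected groups.

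For the wider pathways, the mean log2 CPM of 25 other peroxisomal genes minus that of 23 other mitochondrial genes was −1.26 ± 0.14 in controls, −1.10 ± 0.25 in let-7d and −1.31 ± 0.13 in let-7e. The mean of 25 includes Slc27a2 and Acox2, which were close to the floor of detection in many libraries. Slc27a2 was at 36.5 CPM in let-7d 1, 13.0 CPM in let-7d 5 and 0 to 7.20 CPM in the others. In let-7d the high values were −0.70 in let-7d 1 and −0.94 in let-7d 5, the 2 libraries with epithelial transcripts, where 8 of 8 epithelial markers were measured and their mean log2 CPM was 6.01 and 4.97, against −1.78 to 2.42 in the other 15 libraries. Their part in this difference was not tested.

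**Figure D5:**
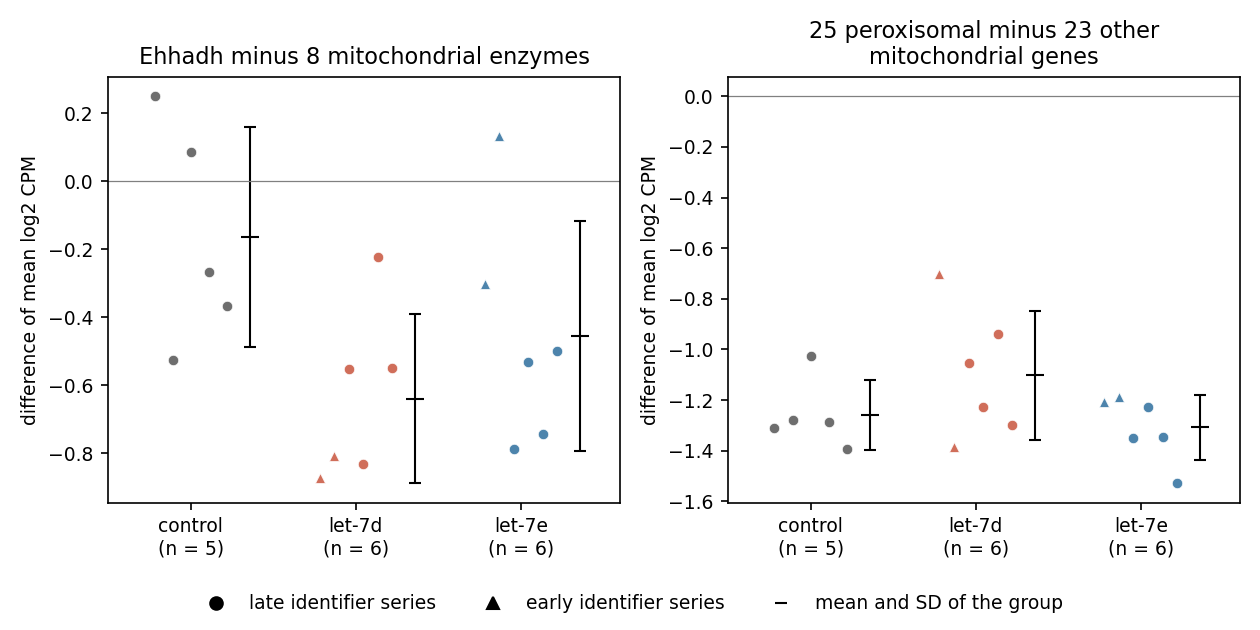
Difference of mean log2 CPM in each library (y axis) by group (x axis), for Ehhadh minus the 8 mitochondrial enzymes (left) and for 25 peroxisomal minus 23 other mitochondrial genes (right). Triangles are the early identifier series and bars are the group's mean and SD. Group means on the left are −0.16, −0.64 and −0.46, with overlapping libraries, and the highest let-7d values on the right are let-7d 1 and let-7d 5.

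The other genes of mitochondrial beta-oxidation were mostly lower with let-7d in sign, and none passed the adjusted test. With let-7d, 20 of 23 had a log2 fold change below 0 (87.0%, against 57.5% of all genes), with a median of −0.17, and 4 of these were lower at an unadjusted p under 0.05, where 7.08% of all genes were. With let-7e, 13 of 23 were below 0, against 58.1% of all genes, with a median of −0.03. At that level 0 were lower, where 7.99% of all genes were. In let-7e against let-7d 21 of 23 were above 0, against 46.9% of all genes, with a median of 0.14. There 0 reached an unadjusted p under 0.05, where 6.67% of all genes did. None of the 23 passed in edgeR's adjusted test, in DESeq2 or in limma-voom in any comparison. Their mean log2 CPM was highest in control 1, at 7.47, and lowest in let-7d 1, at 6.41. How far the counts of signs rest on these libraries was not tested. The smallest p in each direction belonged to Acad12 (−0.37, SE 0.13, adjusted p = 0.456 in edgeR) and Acad9 (0.15, SE 0.14) with let-7d. With let-7e these were Acad10 (−0.19, SE 0.16) and Etfa (0.21, SE 0.15), and between let-7e and let-7d Acad11 (0.36, SE 0.18) and Mcee (−0.02, SE 0.12). Acad9 helps to assemble respiratory complex I, Etfa is a subunit of the flavoprotein that takes electrons from the dehydrogenases, and Mcee acts on the propionate branch.

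Among the steps around the 8 enzymes, none of the 3 genes named next passed the adjusted test. Slc25a20, the carnitine carrier of the inner membrane, had 102 ± 37.4 CPM in controls (SD, n = 5), 77.3 ± 11.0 in let-7d (SD, n = 6) and 91.4 ± 17.9 in let-7e (SD, n = 6). Its log2 fold change with let-7d was −0.42 (SE 0.21). Hadh, the short-chain 3-hydroxyacyl-CoA dehydrogenase, had 445 ± 109.9, 402 ± 69.4 and 447 ± 60.1 CPM, and Acaa2, a thiolase, 175 ± 34.6, 153 ± 24.4 and 173 ± 30.4 CPM. The adjusted p of these genes in edgeR lay between 0.515 and 0.985.

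Of 25 other peroxisomal genes, 20 were below 0 with let-7d (80%, against 57.5% of all genes) with a median of −0.12, 3 of them lower at an unadjusted p under 0.05, where 7.08% of all genes were. With let-7e, 16 of 25 were below 0, against 58.1% of all genes, with a median of −0.15. Again 3 were lower at that level, where 7.99% of all genes were. In let-7e against let-7d 13 of 25 were above 0, against 46.9% of all genes, with a median of 0.02. There 2 were higher at that level, where 6.67% of all genes differed in either direction. None passed in edgeR's adjusted test, in DESeq2 or in limma-voom. Hsd17b4, which takes the same steps as Ehhadh for branched and very long chains, had 493 ± 132 CPM in controls (SD, n = 5), 429.8 ± 70.5 in let-7d (SD, n = 6) and 497 ± 80.5 in let-7e (SD, n = 6). Its log2 fold change with let-7d was −0.16 (SE 0.18, adjusted p = 0.771 in edgeR).

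The peroxisomal genes with the smallest p in each direction were Eci3 (−0.64, SE 0.24, adjusted p = 0.456 in edgeR) and Slc27a2 (1.67, SE 1.42) with let-7d, Decr2 (−0.22, SE 0.09, adjusted p = 0.417) and Ech1 (0.25, SE 0.14) with let-7e, and Phyh (0.25, SE 0.10, adjusted p = 0.703) and Slc27a2 (−2.40, SE 1.31) in let-7e against let-7d. Eci3 is an enoyl-CoA isomerase, Ech1 a dienoyl-CoA isomerase, Decr2 a dienoyl-CoA reductase and Phyh the first enzyme of phytanate breakdown. Slc27a2, a very long-chain acyl-CoA synthetase and transporter of liver and kidney, was at 36.5 CPM in let-7d 1 and 13.0 CPM in let-7d 5, the libraries with epithelial transcripts, and at 0 to 7.20 CPM in the other 15. Without the 4 libraries that hold transcripts of other organs its log2 fold change in let-7e against let-7d was −0.10.

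Among 22 regulators and targets of PPAR alpha, 13 were below 0 with let-7d (59.1%, against 57.5% of all genes), with a median of −0.03. With let-7e 12 were below 0 (54.5%, against 58.1% of all genes), with a median of −0.04. In let-7e against let-7d 13 were above 0 (59.1%, against 46.9% of all genes), with a median of 0.03. At an unadjusted p under 0.05, 2 were lower with let-7d, 3 were lower with let-7e, and 1 was higher and 1 lower between let-7e and let-7d, beside 7.08%, 7.99% and 6.67% of all genes. None passed in edgeR's adjusted test, in DESeq2 or in limma-voom. Ppara itself was low, at 2.86 ± 0.689 CPM in controls (SD, n = 5), 3.07 ± 1.71 in let-7d (SD, n = 6) and 3.66 ± 0.990 in let-7e (SD, n = 6). Its coactivator Ppargc1a had 3.34 ± 0.885, 5.22 ± 3.68 and 4.51 ± 1.63 CPM. For Ppara the log2 fold change was −0.26 (SE 0.28) with let-7d and 0.05 (SE 0.28) with let-7e, and for Ppargc1a 0.30 (SE 0.37) and 0.20 (SE 0.36). The fitted values account for the identifier series and the group means do not, and for Ppara with let-7d their signs are opposite.

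The genes of this list with the smallest p in each direction were Cidea (−1.51, SE 0.54, adjusted p = 0.456 in edgeR) and Rxra (0.17, SE 0.12) with let-7d, and Cidea (−1.45, SE 0.55, adjusted p = 0.396) and Angptl4 (0.32, SE 0.16) with let-7e. Cidea, a lipid droplet protein of brown and beige fat, had 14.4 ± 14.2 CPM in controls (SD, n = 5), with 38.8 CPM as the highest value, and its log2 fold changes without control 1 were −0.70 and −0.64. Between let-7e and let-7d they were Angptl4 (0.34, SE 0.15, adjusted p = 0.715 in edgeR), a secreted inhibitor of lipoprotein lipase, and Acot1 (−2.24, SE 1.03, adjusted p = 0.742), a cytosolic acyl-CoA thioesterase. For Acot1 the value without the 4 libraries that hold transcripts of other organs was 1.02.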

How the data were processed

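Of 18 labelled libraries of whole eWAT RNA, 17 were analysed. The deposited values are whole-number read counts per gene. Per the submitters' processing notes, the authors aligned with STAR (version not given) to GRCm38.p6. The counting tool, its use of strand and the level of the authors' CPM filter are not given in the sources used here. The deposited RPKM table was not used, because the gene length it implies differed between libraries. Of 16452 genes, 16438 had a symbol in GENCODE M21; promoters came from RefSeq (GRCm38.p6).

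In R 4.3.3, edgeR 4.0.16 scaled counts by TMM, filterByExpr removed 0 genes, and all libraries entered a single two-sided quasi-likelihood test, with terms for group and identifier series and Benjamini-Hochberg adjustment over all genes. The common biological coefficient of variation was 0.360. Log2 CPM has a prior count of 2. DESeq2 1.42.0 and limma 3.58.1 were alternatives, besides other filters, size factors, the replicate block, subsets of libraries and leaving out each library. Permutations used SciPy 1.17.1. Total counts of 12717365 to 28972306 set the counting precision. The most alike libraries within a group were let-7d 3 and let-7d 6, whose counts differed beyond sampling noise (chi-square over its degrees of freedom 15.4), and all libraries count as separate samples.

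The 9 genes and the lists were chosen with earlier results of these data known. Besides the 9 enzymes and 8 fixed pathway genes, the text names per list and comparison the gene with the smallest p in each direction among those that averaged 1 CPM or more, and per enzyme the 3 genes most like it. Genes of this rule that are not named are not reported here. Other genes shown beside a result, such as Prm2, Ldhc and Acacb, were chosen after their values were seen.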

Additional observations from a re-analysis of the deposited data

Results flagged for a closer look

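With 9 enzymes in 3 groups, 27 groups of libraries were examined for a single library far from the rest, and chance marks about 1 in 20 such groups. Both libraries found this way were controls. Cpt1b was at 2.09 CPM in control 6, where the other controls held 0.344 to 0.770 CPM, and the gap to the nearest control was 0.755 of the range of the group. Ehhadh was at 151 CPM in control 1, where the other controls held 67.6 to 91.5 CPM, and the gap was 0.713 of the range.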

How the results depend on the processing

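None of the 9 enzymes was called in any comparison under any alternative run. Of all genes, DESeq2's Wald test called 10 with let-7d, 15 with let-7e and 14 between let-7e and let-7d, where edgeR called 0, and the cause was not tested. With each library left out in turn, edgeR called 0 genes in all 3 comparisons. At an unadjusted p under 0.05 edgeR counted 1676, 1729 and 1097 genes in these comparisons. With let-7d the count was 1069 among genes of at least 5 CPM, 967 with only the groups compared, 2713 without control 2 and 1052 without let-7d 3. With let-7e it was 993 and 916 under the first and the second of these settings, 1042 in limma-voom, 1119 in late libraries, 1123 without the 4 libraries with transcripts of other organs and 2739 without control 2. Between let-7e and let-7d it was 627 without let-7d 1 and 707 without let-7e 2.

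The main fit did not pair libraries by replicate number. Deviations of same-numbered libraries correlated at −0.27 to 0.71, with a median of −0.02 over 16 pairs. Those of differently numbered libraries correlated at −0.56 to 0.58, with a median of 0.02 over 80 pairs. With the replicate block but without the identifier series, 1 gene was called with let-7d, Acadl with let-7e was −0.0223, Rxra with let-7d −0.0553, and 695 genes had an unadjusted p under 0.05 between let-7e and let-7d. With the replicate block and the series, Cpt2, Acadvl and Hadhb with let-7e were 0.0867, 0.0697 and 0.121 on the log2 scale. The block changed no adjusted call of an enzyme, but with the block and the series Ehhadh with let-7d had an unadjusted p of 0.0847 in edgeR.

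Acadl with let-7e was −0.0337 without the series term, −0.0382 in late libraries, −0.0163 with only the groups compared and −0.263 without the 4 libraries with transcripts of other organs, an alternative chosen after seeing the data. Without those 4, Acadm was −0.112 (let-7d) and −0.0508 (let-7e), and Acot1 1.02 in let-7e against let-7d. In the last comparison Cpt1a was −0.00165 among genes of at least 5 CPM, and Cpt2 and Ehhadh were −0.0180 and −0.0384 in late libraries.

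Leaving out 1 library each turned the sign of 8 values. With let-7e Acadl ranged from −0.0766 to 0.191, Cpt2 from −0.253 to 0.0887, Acadvl from −0.173 to 0.0864 and Hadhb from −0.234 to 0.0963. With let-7d Acadm ranged from −0.0633 to 0.180. Between let-7e and let-7d Cpt1a ranged from −0.0709 to 0.0823, Cpt1b from −0.0749 to 0.201 and Mcee from −0.0790 to 0.0436.

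Pairs of enzymes with an adjusted permutation p under 0.05 numbered 20, against 19 in late libraries and 17 without the 2 farthest libraries. Depth limits Cpt1b, at 3 to 51 counts per library, which the filter at 5 CPM removes.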
